A study of Mus musculus with 19 samples.

Results

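The cholesterol and fatty acid synthesis genes described here are 32 genes taken by name from the 51707 genes measured in the series. They are 7 mevalonate and isoprenoid enzymes, 11 squalene and sterol ring enzymes, 6 SREBP factors and regulators, 4 fatty acid synthesis enzymes and 4 desaturases. The list does not hold every enzyme of either pathway. No measured value was used to choose the genes, but results of these data were known when the list was drawn up.

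RNA was sequenced from cells sorted by flow cytometry out of pancreatic ductal adenocarcinomas, which had grown from T-LOH KPC organoids placed orthotopically into C57BL/6J mice. KPC denotes a genetically engineered mouse model of pancreatic cancer. The mice received neratinib, an irreversible inhibitor of the ERBB receptor tyrosine kinases, or vehicle for 2 weeks. PDPN+ cells, labelled as cancer-associated fibroblasts, gave 4 vehicle and 4 neratinib libraries. EpCAM+ cells, labelled as epithelial cells, gave 6 vehicle and 5 neratinib libraries. All tumours of all groups therefore carry the same transplanted tumour type, and the sources used here do not give the age of the mice. The labels carry a 5-digit number, taken here for the mouse by inference. That gives 11 mice, of which 8 supplied both populations and 3 supplied EpCAM+ cells without PDPN+ cells, and the p-values then measure the spread between mice. Libraries are named below by treatment (V for vehicle, N for neratinib) and mouse number.

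Cholesterol is built from acetyl-CoA through the mevalonate pathway, which also supplies isoprenoids, and then through squalene and a series of sterol ring intermediates. Fatty acids are built from the same acetyl-CoA by the ACLY, ACACA and FASN enzymes, and are then elongated and desaturated. The SREBP transcription factors activate both sets of genes when membrane sterol is low. SCAP carries SREBP out of the endoplasmic reticulum, and the INSIG proteins hold it back when sterol is plentiful.

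Reads assigned to genes numbered 30.32 to 48.06 M (mega) in PDPN+ libraries and 39.42 to 75.37 M in EpCAM+ libraries. Mitochondrial reads made up 6.14 to 19.5% of the PDPN+ libraries, compared with 2.15 to 2.89% for EpCAM+. On the first principal component of each population's expression values, the PDPN+ libraries of V53175 and V53188 (-210 and -180) lay apart from the other 6 (43.8 to 86.3). The EpCAM+ libraries of V53175, V53176 and N53178 (-94.4 to -85.5) lay apart from the other 8 (18.4 to 49.2). Genes with at least 10 reads were fewest in the PDPN+ libraries of V53175 (12057) and V53188 (11876). They numbered 13642 to 18552 in the other PDPN+ libraries and 16485 to 17920 in EpCAM+ libraries. The labelled cell types were checked with markers: 6 fibroblast genes summed to 4760 to 8030 TPM (Salmon's transcript level per length, scaled to the library) in PDPN+ libraries and to 8.6 to 78.9 in EpCAM+ libraries. The 6 epithelial genes summed to 16100 to 21900 TPM in EpCAM+ libraries and to 274 to 1200 in PDPN+ libraries. Adipocytes, which also run these pathways, were checked with 8 genes: Lep was at 0 in every library of both populations, and the list summed to 0.0371 to 16.9 TPM in PDPN+ and to 8.62 to 44.3 TPM in EpCAM+ libraries.

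Some members share sequence with other genes, so that reads could be divided between them, and their values are uncertain to that extent. Of the 31-base words of the main Fdps transcript, 85.7% also occur in other genes and 73.7% occur in Gm43738, which was listed at no more than 0.328 TPM in any library. The corresponding share was 59.9% for Acaca and 50.5% for Acat2, whose nearest relative Acat3 had a median of 5.99 TPM in PDPN+ cells and 0.640 in EpCAM+ cells. The shares were 22.2% for Idi1, 21.3% for Fdft1 (in Gm6781, listed at up to 17.7 TPM in PDPN+ cells), 14.7% for Elovl6, 8.26% for Scd1 and 6.86% for Scd2. On the opposite strand, 26.2% of the words of Fdft1 lie in Ctsb, 15.6% of Hmgcs1 in Gm48342, 15.3% of Acat2 in Tcp1 and 15.3% of Scap in 5830462I19Rik. The sources used here do not say whether the authors' counting used strand.

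In EpCAM+ cells the highest members on the TPM scale, which is per transcript length, were sterol enzymes, but other sterol enzymes were among the lowest. Fdps, which makes farnesyl diphosphate, had the highest mean (313 ± 43.8 TPM, SD, n = 11). Msmo1, a sterol 4-methyl oxidase, followed at 221 ± 46.7 TPM, and Sqle, the squalene epoxidase, at 188 ± 30.3 TPM. Sc5d, the lathosterol oxidase, had a mean of 175 ± 31.2 TPM. Msmo1, Sqle and Sc5d overlapped one another in range, and the 11 values of Fdps (237 to 405 TPM) reached down into the range of Msmo1 (163 to 318 TPM). The lowest means were those of Acaca (3.91 ± 1.75 TPM) and Idi1 (8.01 ± 1.88 TPM). In PDPN+ cells Acly, the ATP citrate lyase that supplies cytosolic acetyl-CoA, led with 100.0 ± 32.1 TPM (SD, n = 8), ahead of Fdps with 96.0 ± 37.3 TPM, and their ranges overlapped. Hmgcs1 (47.3 ± 37.5 TPM), Ebp (46.3 ± 14.6 TPM) and Cyp51 (44.2 ± 23.7 TPM) followed there. Scd1, a stearoyl-CoA desaturase, came next at 37.9 ± 25.6 TPM, with V53188 at 99.3 TPM. Its mean was above those of Msmo1 (34.1 ± 16.6 TPM) and Sqle (29.4 ± 19.5 TPM) by less than the SDs. The medians of Scd1, Msmo1 and Sqle were 30.4, 30.2 and 28.6 TPM. Values in PDPN+ cells spread more widely: 12 of 256 library values, in 6 members, rested on fewer than 10 reads, against none in EpCAM+ cells.

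Of the 18 sterol enzymes, 12 were lower in PDPN+ than in EpCAM+ cells, as were all 6 SREBP factors and regulators, whereas Scd1 and Fads1 were higher. Fewer of the sterol enzymes and regulators passed within a single treatment, as given below. In the comparison of the populations over all 19 libraries, 20 of the 32 members were lower and 2 higher at an edgeR adjusted p under 0.05. Across all 19626 genes tested, 49.3% were called in either direction, 25.0% lower and 24.3% higher. The median log2 difference (PDPN+ minus EpCAM+) was -1.16 over the members and -0.13 over all genes. Over all genes edgeR called 4761 higher and 4912 lower. The split moved to 3945 higher and 6209 lower with limma voom and to 2581 higher and 6947 lower with limma on log2(TPM + 1), where the median over all genes was -0.52 and -0.64. In bulk libraries, fewer cells of a type and less RNA per cell cannot be told apart. In TPM, the populations did not overlap at all for 13 members, all lower in PDPN+ cells, beside 22.1% of all genes tested in either direction. Most such genes were lower too: 3251 were lower in PDPN+ cells and 1090 higher. Because PDPN+ and EpCAM+ libraries of 8 mice can be paired by number, a fit with the mouse as a replicate block was run. It called 17 members (15 lower, 2 higher), beside 38% of all genes. The same 16 libraries without the block gave 20, beside 42.5% of all genes. Without the 5 libraries that stood apart, 19 were called, beside 47.3% of all genes.

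**Figure D1:**
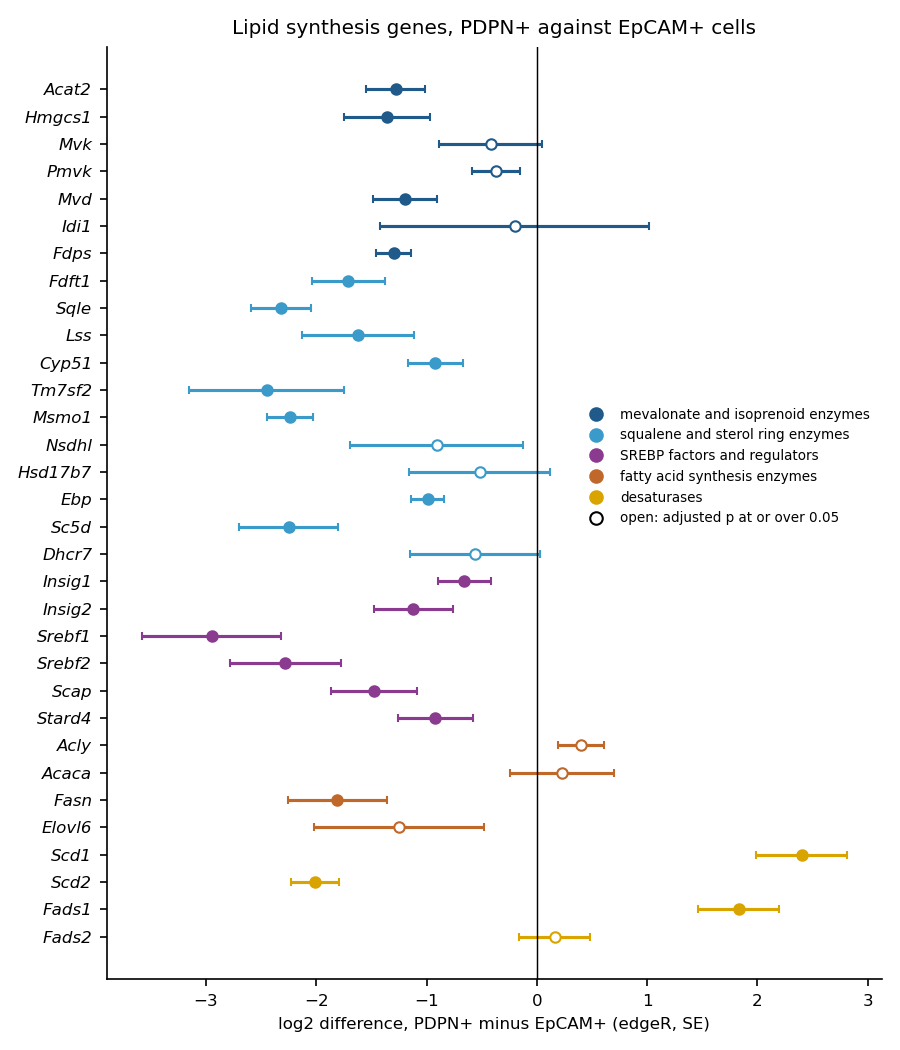
Log2 difference between PDPN+ and EpCAM+ cells (x axis, PDPN+ minus EpCAM+) for each of the 32 genes (y axis), as estimated by edgeR with its SE as the bar; colours give the gene's role and open points did not pass an adjusted p of 0.05. All 6 SREBP factors and regulators lie to the left of 0, and Scd1 (2.40) and Fads1 (1.83) are the filled points to the right.

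Of the 7 mevalonate and isoprenoid enzymes, 4 were lower in PDPN+ cells. Fdps had a lowest, median and highest level of 49.1, 103 and 138 TPM in PDPN+ cells and 237, 309 and 405 TPM in EpCAM+ cells. The ranges did not overlap, and the log2 difference was -1.30 (SE 0.16, edgeR adjusted p = 2.09e-06). Acat2, a cytosolic acetoacetyl-CoA thiolase, ran from 8.00 to 62.5 TPM (median 29.2) against 71.4 to 128 (median 95.0), a log2 difference of -1.28 (SE 0.27, edgeR adjusted p = 0.000546). Mvd, the mevalonate diphosphate decarboxylase, ran from 3.60 to 24.0 TPM (median 13.7) against 27.4 to 68.5 (median 41.8). Its log2 difference was -1.20 (SE 0.29, edgeR adjusted p = 0.00186). Hmgcs1, the HMG-CoA synthase, ran from 2.13 to 114 TPM (median 40.2) in PDPN+ cells against 110 to 228 (median 142), a log2 difference of -1.36 (SE 0.39, edgeR adjusted p = 0.00666). V53179 alone put the highest PDPN+ value of Hmgcs1 inside the EpCAM+ range, and the call was lost without the 5 libraries that stood apart (-1.17, edgeR adjusted p = 0.0800). The kinases Mvk (-0.42, SE 0.47) and Pmvk (-0.37, SE 0.22) did not pass the test. Idi1, which isomerises isopentenyl diphosphate, had a log2 difference of -0.20 with an SE of 1.22: it was at 0 reads in V53175, N53178, N53184 and N53194, at 6 reads in V53185, and between 612 and 1561 reads in V53179, V53188 and N53180. Without N53180 its difference was -6.29 (edgeR adjusted p = 0.00147), so that 1 library decided the call.

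Of the 11 squalene and sterol ring enzymes, 8 were lower in PDPN+ cells and none higher. Msmo1 had the smallest p of all members: its lowest, median and highest levels were 16.2, 30.2 and 64.1 TPM in PDPN+ cells and 163, 210 and 318 TPM in EpCAM+ cells. The lowest EpCAM+ library was thus above every PDPN+ library, and the log2 difference was -2.24 (SE 0.21, edgeR adjusted p = 7.1e-08). Sqle ran from 6.79 to 64.4 TPM (median 28.6) against 135 to 232 (median 192), a log2 difference of -2.32 (SE 0.27, edgeR adjusted p = 1.13e-06). Sc5d ran from 0.381 to 44.6 TPM (median 23.1) against 129 to 228 (median 177), a log2 difference of -2.25 (SE 0.45, edgeR adjusted p = 0.000398). Fdft1, the squalene synthase, differed by -1.71 (SE 0.33, edgeR adjusted p = 0.000306), with the highest PDPN+ value at 62.1 TPM and the lowest EpCAM+ value at 77.0 TPM. Tm7sf2, a sterol C14-reductase, differed by -2.45 (SE 0.70, edgeR adjusted p = 0.00701) and was at 0 reads in V53175. Smaller differences were found for Ebp, a sterol isomerase (-0.99, SE 0.15), and Cyp51, the lanosterol demethylase (-0.92, SE 0.25), neither of which overlapped between populations in TPM.

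Lss, the lanosterol synthase, differed by -1.62 (SE 0.51, edgeR adjusted p = 0.0122), with V53179 (28.5 TPM) far above the other PDPN+ libraries (0.0204 to 9.57 TPM) and inside the EpCAM+ range of 18.3 to 51.0 TPM. The Lss call did not hold with the replicate block (-1.92, edgeR adjusted p = 0.0706) or without the 5 libraries that stood apart (-1.67, edgeR adjusted p = 0.0677), although the difference was no smaller. Nsdhl (-0.91, SE 0.78), Hsd17b7 (-0.52, SE 0.64) and Dhcr7 (-0.56, SE 0.59) did not pass. Nsdhl was at 0 reads in V53175 and at 5 reads in N53184, against 3.39 to 28.7 TPM in the other 6 PDPN+ libraries. Hsd17b7 ran from 0.121 TPM in N53178 to 38.0 TPM in V53188, and without N53184 it passed the test (-1.94, edgeR adjusted p = 0.00454).

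All 6 SREBP factors and regulators were lower in PDPN+ cells over all 19 libraries. Within each treatment fewer passed: 3 in vehicle mice (Srebf1, Srebf2 and Scap) and 4 in neratinib mice (Srebf1, Srebf2, Insig2 and Stard4). All genes called there were 33.1% and 38.9%. Insig2 differed by -0.23 (SE 0.48) in vehicle and -2.02 (SE 0.53) in neratinib mice, and Stard4 by -0.45 (SE 0.47) and -1.38 (SE 0.50). Srebf1, which encodes the factor known chiefly for fatty acid genes, ran from 0.32 to 12.4 TPM (median 5.95) in PDPN+ cells and from 7.88 to 101 TPM (median 76.4) in EpCAM+ cells. The ranges overlapped through the 3 EpCAM+ libraries that stood apart, and the log2 difference was -2.95 (SE 0.63, edgeR adjusted p = 0.000742). Srebf2, which encodes the factor known chiefly for sterol genes, ran from 4.86 to 45.4 TPM (median 20.3) against 23.0 to 162 (median 139), a log2 difference of -2.28 (SE 0.50, edgeR adjusted p = 0.000979). Scap, the SREBP escort, ran from 2.57 to 7.98 TPM (median 5.73) against 4.25 to 35.1 (median 25.6), a log2 difference of -1.48 (SE 0.39, edgeR adjusted p = 0.00386). Insig2 differed by -1.12 (SE 0.36, edgeR adjusted p = 0.0139), Stard4, a sterol carrier, by -0.92 (SE 0.34, edgeR adjusted p = 0.0328), and Insig1 by -0.66 (SE 0.24, edgeR adjusted p = 0.0291). Without the 5 libraries that stood apart, Srebf1 (-3.23), Srebf2 (-2.69) and Scap (-1.92) still passed, whereas Insig1 (-0.49, edgeR adjusted p = 0.153) and Stard4 (-1.01, edgeR adjusted p = 0.102) did not. With the replicate block, Scap (-1.31, edgeR adjusted p = 0.0591) and Insig2 (-1.38, edgeR adjusted p = 0.0746) no longer passed. Insig1 (-0.62, edgeR adjusted p = 0.131) and Stard4 (-1.10, edgeR adjusted p = 0.0998) did not pass with the block either, but they also failed in the same 16 libraries without it (-0.53 and -0.90, edgeR adjusted p = 0.133 and 0.0814). Leaving out V53176 in EpCAM+ cells also ended the call of Insig1 (edgeR adjusted p = 0.0530), and leaving out V53185 in PDPN+ cells (0.0520) or N53194 in EpCAM+ cells (0.0502) ended that of Stard4. With limma voom and sample quality weights, Srebf1 (adjusted p = 0.0915), Srebf2 (0.0942), Scap (0.122) and Insig1 (0.193) did not pass, at log2 differences of -3.28, -2.49, -1.68 and -0.58.

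Among the 4 fatty acid synthesis enzymes, Fasn alone was called between the populations. Fasn, the fatty acid synthase, ran from 6.11 to 29.6 TPM (median 14.0) in PDPN+ cells and from 17.5 to 51.3 TPM (median 41.5) in EpCAM+ cells, a log2 difference of -1.81 (SE 0.45, edgeR adjusted p = 0.00244). With effective-length offsets, which allow for the transcript lengths in use in each library, the Fasn difference was -0.82 (edgeR adjusted p = 0.0266). With voom quality weights it was -1.97 and did not pass (adjusted p = 0.131). Acly ran from 67.4 to 162 TPM (median 91.4) against 57.7 to 155 (median 120), with a log2 difference of 0.40 (SE 0.21, edgeR adjusted p = 0.120). Acaca, the acetyl-CoA carboxylase, differed by 0.23 (SE 0.47) and turned to -0.65 (edgeR adjusted p = 0.0457) without the 5 libraries that stood apart. Elovl6, a fatty acid elongase, differed by -1.25 (SE 0.77, edgeR adjusted p = 0.192) and ran from 0.00495 TPM in V53188 to 19.7 TPM in N53184 within PDPN+ cells.

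The 4 desaturases did not move together. Scd1 ran from 20.2 to 99.3 TPM (median 30.4) in PDPN+ cells and from 2.89 to 23.8 TPM (median 8.53) in EpCAM+ cells, a log2 difference of 2.40 (SE 0.41, edgeR adjusted p = 8.22e-05). Its paralog Scd2 went the other way, from 10.4 to 22.0 TPM (median 20.3) against 51.0 to 150 (median 111), a log2 difference of -2.01 (SE 0.22, edgeR adjusted p = 4.3e-07). Scd1 made up 62.7 ± 15.2% of the summed Scd1 and Scd2 TPM in PDPN+ vehicle libraries (SD, n = 4) and 66.0 ± 12.0% in PDPN+ neratinib libraries (n = 4). The share was 9.82 ± 3.41% in EpCAM+ vehicle libraries (n = 6) and 8.58 ± 3.45% in EpCAM+ neratinib libraries (n = 5). The lowest PDPN+ share (47.9%) was above the highest EpCAM+ share (16.4%). Fads1, the delta-5 desaturase of polyunsaturated fatty acids, ran from 11.9 to 37.1 TPM (median 22.7) against 2.26 to 27.0 (median 7.20), a log2 difference of 1.83 (SE 0.37, edgeR adjusted p = 0.000492). Its neighbour in the pathway, Fads2, the delta-6 desaturase, differed by 0.16 (SE 0.32, edgeR adjusted p = 0.711). Without the 5 libraries that stood apart the differences of Scd1 (1.56) and Fads1 (1.20) were smaller and still passed (edgeR adjusted p = 0.00110 and 0.0228).

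**Figure D2:**
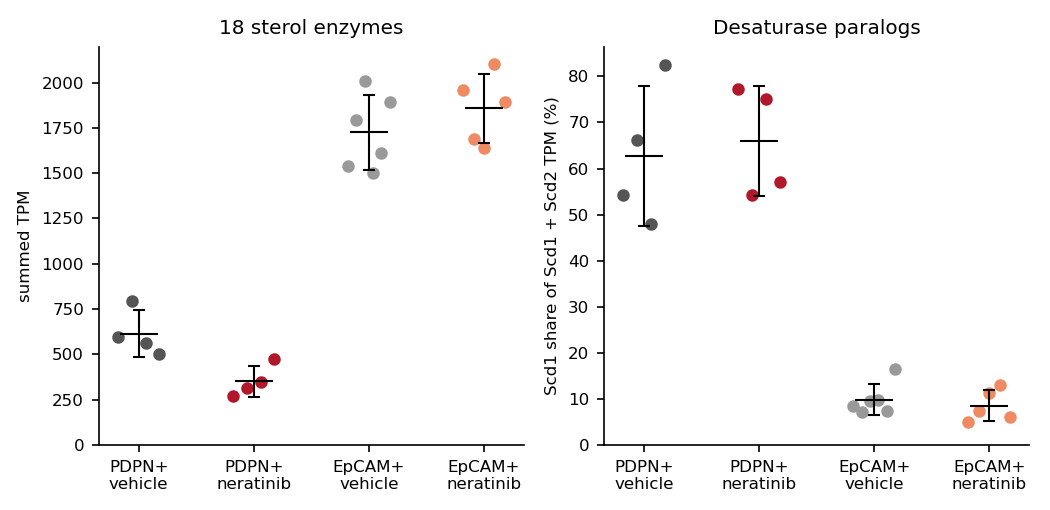
Left, TPM summed over the 18 mevalonate, isoprenoid, squalene and sterol ring enzymes (y axis) in each library; right, Scd1 as a percentage of the summed Scd1 and Scd2 TPM (y axis). Points are libraries by group (x axis), and the bar gives the group mean and SD; the PDPN+ neratinib sums (271 to 472) lie below the PDPN+ vehicle sums (502 to 797), and the Scd1 share separates the populations.

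The population difference was also tested within each treatment, by contrasts of the fit over all 19 libraries. The mice differed between treatments, but the spread was estimated over all groups together, so these tests are not independent. In vehicle mice 13 members were called (11 lower, 2 higher), beside 33.1% of all genes. In neratinib mice 17 were called (16 lower, 1 higher), beside 38.9% of all genes. Of the 7 mevalonate and isoprenoid enzymes, 2 were lower in vehicle and 3 in neratinib mice. Of the 11 squalene and sterol ring enzymes, 5 and 7 were. The sign was the same in both for 28 of 32 members, compared with 79.3% of all genes. Of the 9 members called in both, 8 were lower (Fdps, Sqle, Msmo1, Ebp, Sc5d, Srebf1, Srebf2 and Scd2) and 1 was higher (Scd1). Msmo1 differed by -1.85 (SE 0.29, edgeR adjusted p = 6.45e-05) in vehicle mice and by -2.63 (SE 0.30, edgeR adjusted p = 2.71e-06) in neratinib mice. Scd1 differed by 2.68 (SE 0.56) and 2.11 (SE 0.59), and Scd2 by -1.77 (SE 0.30) and -2.25 (SE 0.31). Without the 5 libraries that stood apart, 2 PDPN+ vehicle libraries were left. The fit then called 9 members in vehicle mice, all lower, beside 23.7% of all genes in either direction. Scd1 and Fads1 did not pass there.

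Because 12 of the 18 sterol enzymes were lower in PDPN+ cells, the RefSeq promoters of the members (GRCm38.p6) were read for motifs of the known regulators. The 250 bases before the start site were searched on both strands for TCACNCCAC, a form of the sterol regulatory element bound by SREBP, for CCAAT, the box bound by NF-Y, a known partner of SREBP, for the GC box GGGCGG and for the E-box CACGTG. Promoter entries matched 25 of the 32 members, with 33 start sites. The entries for Fdps, Fdft1, Sqle, Stard4, Scd1, Scd2 and Fads1 were not among those used here. The element TCACNCCAC was found in 1 of the 25 members, Hmgcs1, and in 1.22% of the 27025 genes with an entry. At least 1 CCAAT box was found in 19 of the 25 (76.0%), against 37.5% of all genes with an entry and 39.5% of those tested between the populations. The other motifs were also more frequent in the members: the GC box was found in 84.0%, against 35.4% of all genes and 58.4% of those tested, and the E-box in 20.0%, against 6.86% and 9.2%. A match is a description of these letters and not a site. The Hmgcs1 window below holds the element and the nearest CCAAT box. Msmo1 is shown as the member with the smallest p, Fasn as the called fatty acid enzyme and Mvk as the member with the most boxes, chosen after the values were seen. Capitals mark the letters of TCACNCCAC and CCAAT alone, with ATTGG being CCAAT on the other strand, and the last boxes of Fasn overlap each other. Lines give the gene strand, 5′ to 3′.
Hmgcs1 (chr13:119690160-119690237, plus strand): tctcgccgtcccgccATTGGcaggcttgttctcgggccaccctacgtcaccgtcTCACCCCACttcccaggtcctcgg
Msmo1 (chr8:64733617-64733750, minus strand): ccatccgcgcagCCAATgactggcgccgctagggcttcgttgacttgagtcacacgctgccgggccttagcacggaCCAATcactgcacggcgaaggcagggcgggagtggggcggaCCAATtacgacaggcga
Fasn (chr11:120824590-120824649, minus strand): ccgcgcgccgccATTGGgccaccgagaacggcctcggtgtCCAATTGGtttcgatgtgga
Mvk (chr5:114444084-114444268, plus strand): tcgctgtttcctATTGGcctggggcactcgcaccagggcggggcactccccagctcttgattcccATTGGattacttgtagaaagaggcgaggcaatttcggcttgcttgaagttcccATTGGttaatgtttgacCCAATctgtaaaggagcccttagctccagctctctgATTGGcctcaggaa

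The Hmgcs1 element ends 128 bases before the start site, with 34 bases between it and the CCAAT box shown. A CCAAT box was found in 14 of the 15 mevalonate, squalene and sterol ring enzymes with an entry, in 4 of 5 SREBP factors and regulators and in 1 of 4 fatty acid synthesis enzymes. Of the 19 members with a box, 13 were lower in PDPN+ cells, and of the 6 without one (Acaca, Acat2, Acly, Elovl6, Fads2 and Scap), 2 were. Over all genes tested 25.0% were lower, a share not taken apart by box. The members without an entry are not in this split: Fdps, Fdft1, Sqle, Stard4 and Scd2 were lower, and Scd1 and Fads1 higher. A link between the box and the call was not tested. Mvk, with 5 boxes, did not pass the test between the populations.

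No member passed the test for neratinib in PDPN+ cells. By edgeR 0 of 31 members tested were called and 0% of all 14437 genes (Idi1 did not pass the count filter). DESeq2 called 0 members and 13 genes. At an unadjusted p under 0.05 in edgeR there were 3 members (9.68%), Fdps, Sqle and Insig2, beside 2.29% of all genes. Fold changes were below 0 in 23 of 31 members against 47.2% of all genes, with a median log2 fold change of -0.53 over the members and 0.06 over all genes. Without V53175 and V53188, the PDPN+ libraries that stood apart, the members' median was -0.24. No member then had an unadjusted p under 0.05, beside 3.23% of all genes. The count at that threshold moved with the processing. It was 1 member (3.23%) with effective-length offsets, beside 2.36% of all genes, and 6 (18.8%) with limma on log2(TPM + 1), beside 4.35%.

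Fdps had 138, 128, 107 and 134 TPM in the vehicle libraries V53175, V53179, V53185 and V53188, and 53.9, 49.1, 58.4 and 99.4 TPM in the neratinib libraries N53178, N53180, N53184 and N53194. Every neratinib value was below every vehicle value. The log2 fold change was -0.98 (SE 0.35, unadjusted p = 0.0178, edgeR adjusted p = 1). With all 19 libraries in 1 fit the Fdps change was -0.96 (edgeR adjusted p = 0.0620), and its adjusted p ranged up to 1 over the alternatives. Sqle had 24.7, 64.4, 32.4 and 43.9 TPM in the same vehicle libraries and 6.79, 8.43, 16.6 and 38.3 TPM in the neratinib libraries, where N53194 lay among the vehicle values. Its log2 fold change was -1.25 (SE 0.55, unadjusted p = 0.0469 in edgeR). Insig2 had 42.3, 40.6, 18.7 and 63.2 TPM with vehicle and 3.56, 37.5, 11.1 and 17.2 TPM with neratinib, and the groups overlapped at V53185 and N53180. Its log2 fold change was -1.76 (SE 0.78, unadjusted p = 0.0470 in edgeR), and -1.07 without V53175 and V53188. Fads1 had 33.1, 24.7, 24.8 and 37.1 TPM with vehicle and 11.9, 17.8, 18.1 and 20.7 TPM with neratinib, again with every neratinib value the lower. Its log2 fold change was -0.78 (SE 0.40, unadjusted p = 0.0763 in edgeR), and -0.23 without V53175 and V53188. Fdps and Fads1 were the members whose treatment groups did not overlap in PDPN+ TPM, beside 2.81% of all genes tested. The other 27 members tested ranged from -1.51 to 1.38, with SEs of up to 1.70.

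Summed over the 18 sterol pathway enzymes, the PDPN+ level was 597, 797, 562 and 502 TPM in V53175, V53179, V53185 and V53188, and 271, 315, 348 and 472 TPM in N53178, N53180, N53184 and N53194. The groups did not overlap, and their means were 614 ± 128 and 352 ± 86.3 TPM (SD, n = 4 each). No p is given for a sum over chosen genes. N53178 was the lowest PDPN+ library for 6 of the 18 enzymes and V53179 the highest for 8. Mitochondrial genes, which take part in the TPM total, held 10.4, 8.01, 6.14 and 17.3% of reads in the vehicle libraries and 19.5, 13.5, 16.99 and 12.4% in the neratinib libraries. With mitochondrial genes left out of the total the sums were 694 to 1013 TPM in vehicle and 461 to 664 TPM in neratinib libraries, again without overlap. In CPM (TMM-scaled reads per library total, not per length) the sums over the 17 enzymes tested, without Idi1, were 836 to 1412 and 477 to 785. Without Fdps the groups met, with a lowest vehicle sum of 368 TPM and a highest neratinib sum of 373 TPM. The ratio of the neratinib to the vehicle mean was 0.572 in TPM, 0.647 with mitochondrial genes left out of the total, 0.574 in CPM and 0.587 without Fdps. It was 0.649 without the 6 enzymes Fdps, Acat2, Idi1, Fdft1, Hmgcs1 and Lss. Epithelial markers, whose cells had the higher sterol enzyme levels here, summed to 296 to 1200 TPM in PDPN+ vehicle libraries and to 274 to 1160 TPM in PDPN+ neratinib libraries. Proliferation genes summed to 88.4 to 263 TPM with vehicle and to 70.1 to 452 TPM with neratinib. Their part in the result was not tested.

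**Figure D3:**
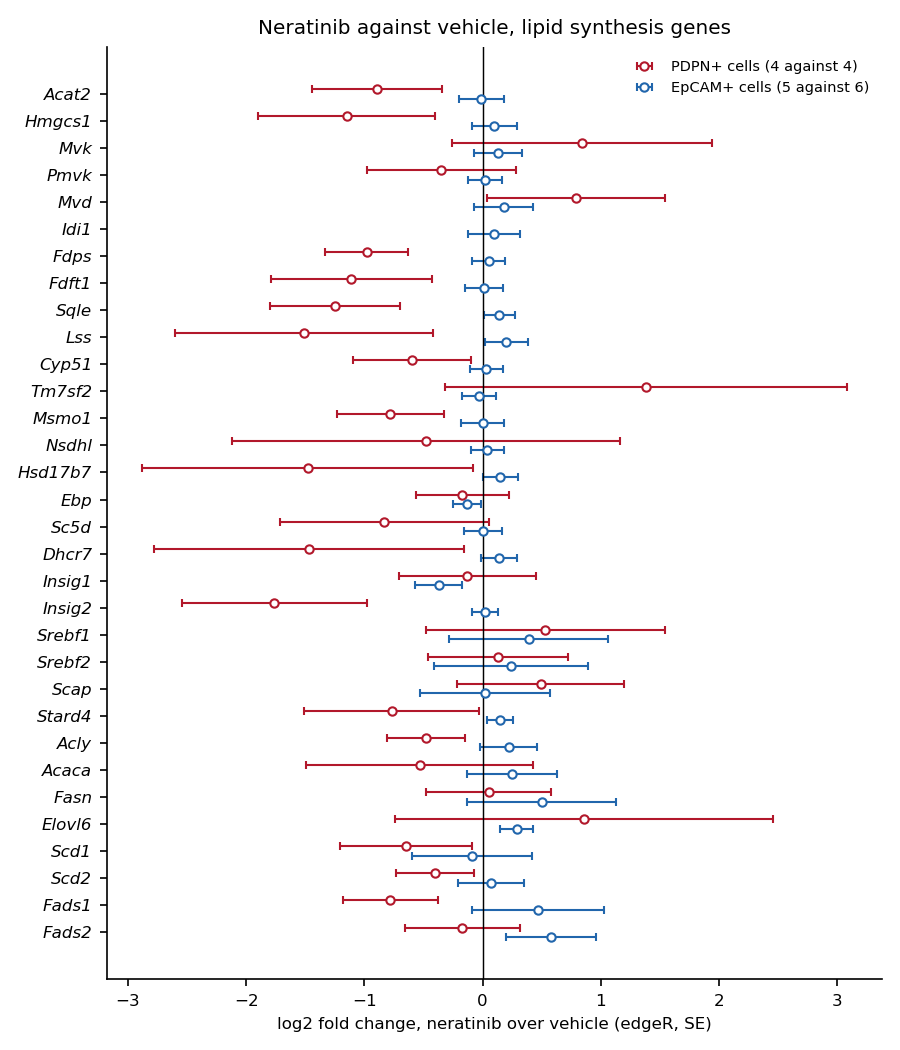
Log2 fold change of neratinib over vehicle (x axis) for each gene (y axis), as estimated by edgeR with its SE as the bar, in PDPN+ cells (4 against 4 libraries, Idi1 not tested) and EpCAM+ cells (5 against 6). No point passed an adjusted p of 0.05; PDPN+ points run from -1.76 to 1.38 and EpCAM+ points from -0.37 to 0.58.

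In EpCAM+ cells no member passed the test for neratinib either. By edgeR 0 of 32 were called, 0% of all 17200 genes were, and no member had an unadjusted p under 0.05, beside 3.05% of all genes. DESeq2 called 0 members and 8 genes. Fold changes lay between -0.37 and 0.58, with 26 of 32 above 0 and a median of 0.10, against 0.00 over all genes. Elovl6 had the smallest p: it ran from 17.9 to 25.0 TPM (median 20.4) in the 6 vehicle libraries and was 21.6, 29.0, 28.3, 39.2 and 25.0 TPM in N53178, N53180, N53184, N53193 and N53194. Its log2 fold change was 0.29 (SE 0.14, unadjusted p = 0.0687 in edgeR). Insig1 ran from 24.7 to 48.2 TPM with vehicle and from 21.1 to 32.1 TPM with neratinib, a log2 fold change of -0.37 (SE 0.20). Fads2 ran from 14.1 to 54.6 TPM with vehicle and from 21.7 to 76.2 TPM with neratinib, a log2 fold change of 0.58 (SE 0.38). Stard4 ran from 37.1 to 48.3 TPM with vehicle and from 40.4 to 51.2 TPM with neratinib, a log2 fold change of 0.15 (SE 0.11). In none of the 32 members did the treatment groups separate in TPM, beside 0.401% of all genes. The 18 sterol enzymes summed to 1499 to 2011 TPM with vehicle and 1640 to 2104 TPM with neratinib, which overlapped.

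The effect of neratinib was not shown to differ between the populations for any member. In the interaction test (the effect in PDPN+ minus the effect in EpCAM+ cells) edgeR called 0 of 32 members and 13 of 19626 genes, or 0.0662%. DESeq2 called 0 members and 633 genes. The smallest p values were those of Fdps (-1.04, SE 0.31, edgeR adjusted p = 0.179), Sqle (-1.39, SE 0.50, edgeR adjusted p = 0.243), Insig2 (-1.78, SE 0.70, edgeR adjusted p = 0.299) and Msmo1 (-0.78, SE 0.39, edgeR adjusted p = 0.475). In all, 3 members (9.38%) had an unadjusted p under 0.05 in edgeR, beside 11.2% of all genes. Without the 5 libraries that stood apart no member did, beside 10.1% of all genes.

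Within EpCAM+ cells, Srebf1, Srebf2, Scap and 6 of the 8 fatty acid synthesis and desaturase genes were low in the libraries that stood apart. The EpCAM+ libraries of V53175, V53176 and N53178, which hold both treatments, lay below all 8 others in TPM for 12 of the 32 members (37.5%), beside 17.6% of all 17200 genes tested. They lay above the others for 1 member, Ebp, beside 7.78% of all genes. On the CPM scale 9 members lay below (28.1%), beside 15.3% of all genes. The grouping comes from the expression data themselves and so is described without a test. Srebf1 was at 9.13, 9.42 and 7.88 TPM in V53175, V53176 and N53178, and between 71.0 and 101 TPM in the other 8. Srebf2 was at 23.0, 23.7 and 28.9 TPM against 120 to 162 TPM, and Scap at 4.25, 5.49 and 5.03 TPM against 18.9 to 35.1 TPM. Fasn was at 17.5, 18.1 and 18.9 TPM against 34.5 to 51.3 TPM, and Acly at 57.7, 61.0 and 70.6 TPM against 112 to 155 TPM. Acaca, Scd1, Scd2 and Fads2 also lay below, whereas Elovl6 (17.9 to 21.6 against 19.4 to 39.2 TPM) and Fads1 (2.26 to 5.03 against 4.08 to 27.0 TPM) overlapped. In these 3 libraries the levels of Srebf1, Srebf2 and Scap were within the range seen in PDPN+ cells.

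Most of the sterol enzymes did not lie below the other 8 libraries. Of the 18, 3 lay below in TPM (Mvd, Lss and Dhcr7), a count near the share of all genes (17.6%). In CPM none of the 18 did, beside 15.3% of all genes. Fdps was at 267, 334 and 405 TPM in V53175, V53176 and N53178 against 237 to 337 TPM in the other 8, and Sqle at 135, 192 and 196 TPM against 155 to 232 TPM. Msmo1 was at 163, 196 and 210 TPM against 173 to 318 TPM, and Insig1 at 26.8, 42.6 and 29.9 TPM against 21.1 to 48.2 TPM. For these genes the ranges overlapped, while in the same libraries Srebf1, Srebf2 and Scap lay below all 8 others. The 3 values of Msmo1 were still under the median of the other 8 (245 TPM). Summed over the 18 enzymes, V53175, V53176 and N53178 were at 1542, 1793 and 1960 TPM, within the 1499 to 2104 TPM of the other 8. V53175 was the lowest EpCAM+ library for 7 of the 18 enzymes, and N53178 was the highest for 6.

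**Figure D4:**
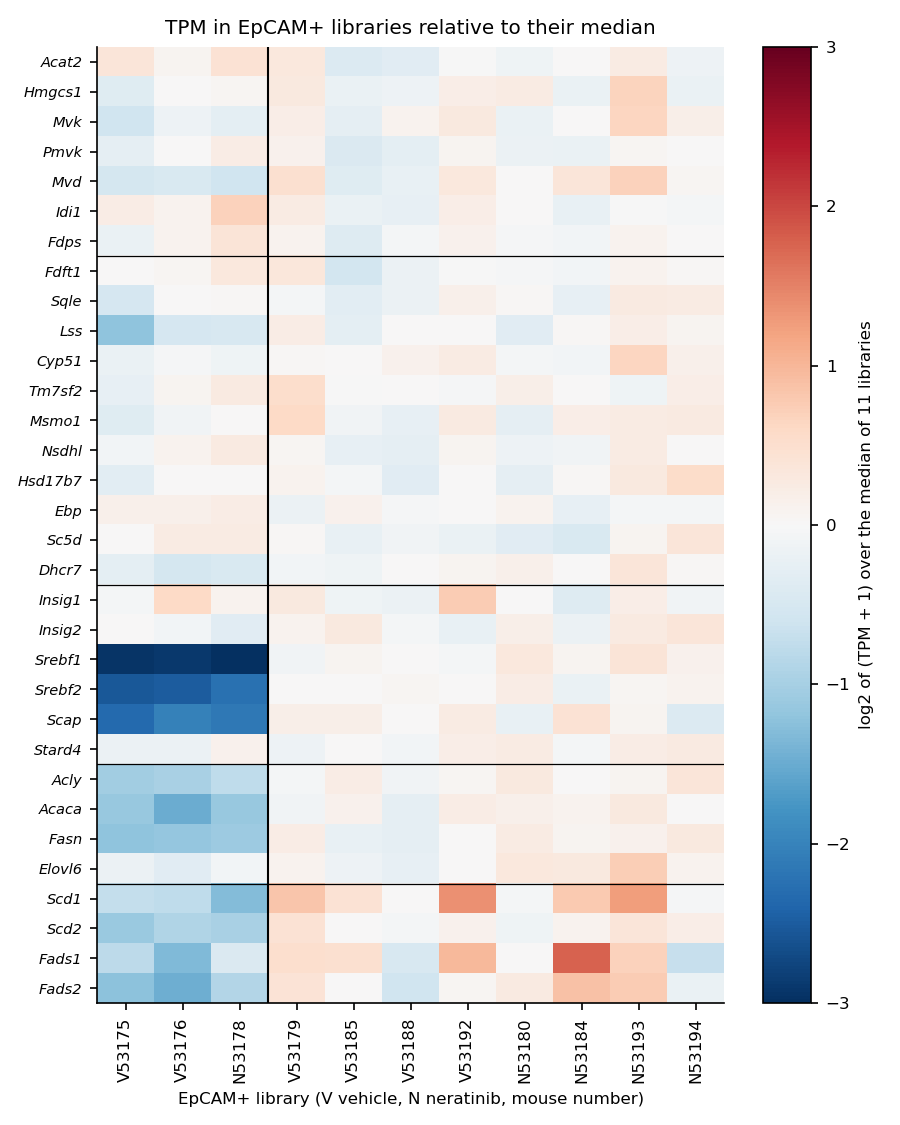
Each cell gives the log2 of (TPM + 1) in an EpCAM+ library (x axis, V vehicle, N neratinib, mouse number) over the median of the 11 EpCAM+ libraries, for each gene (y axis); horizontal lines separate the roles and the vertical line sets off V53175, V53176 and N53178. Srebf1, Srebf2 and Scap are darkest in those 3 columns, while most mevalonate and sterol ring rows stay near 0.

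Transcripts of 1 gene differed in this respect. The Srebf1 transcript of 4299 bases was at 1.71, 3.27 and 2.49 TPM in V53175, V53176 and N53178 and between 47.9 and 61.7 TPM in the other 8 EpCAM+ libraries. The Srebf1 transcript of 4063 bases was at 4.95 to 5.5 TPM in the 3 and 4.72 to 7.99 TPM in the 8. The Srebf2 transcript of 5077 bases was at 6.38 to 8.56 TPM against 83.2 to 111 TPM, and the one of 1981 bases at 11.6 to 16.1 TPM against 27.3 to 38.8 TPM. The Fasn transcript of 8333 bases was at 0.942 to 1.18 TPM against 17.5 to 31.1 TPM, while the one of 976 bases was at 9.06 to 10.5 TPM against 1.43 to 12.8 TPM. These transcripts share sequence, so that the division of reads between them is an estimate.

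Length and base composition moved with this pattern across all genes. The 12 members that lay below had main transcripts with a median length of 4546 bases and a median GC content of 53.8%, against 2697 bases and 47.5% for the 19 that lay neither below nor above. Over all genes tested, the medians were 3294 bases and 54.3% for those below and 2074 bases and 49.0% for those that were neither. Of genes under 45% GC and under 2000 bases, 3.99% lay below, and of genes of at least 55% GC and 4000 bases, 64.4% did. Srebf1 (4299 bases, 58.4% GC), Srebf2 (5077 bases, 57.9% GC), Scap (4227 bases, 59.1% GC) and Fasn (8333 bases, 58.4% GC) belong to the last class. The other 8 members that lay below do not, among them Acaca (49.2% GC), Scd1 (47.1% GC), Scd2 (49.5% GC), Acly (52.1% GC) and Mvd (1756 bases). In the class of length and GC content that holds Acaca, Scd1 and Scd2, 25.4% of all genes lay below. The share was 47.3% in the class of Acly and 14.5% in that of Mvd. Fdps (1237 bases, 52.2% GC) and Msmo1 (2044 bases, 45.2% GC), which did not lie below, are outside the long class of high GC too. In their own classes 6.97% and 10.8% of all genes lay below. The part of length and base composition in the levels of these members was not tested. Per the labels' protocols, the number of PCR cycles depended on the amount of RNA; the sources used here do not give the cycles of each library.

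**Figure D5:**
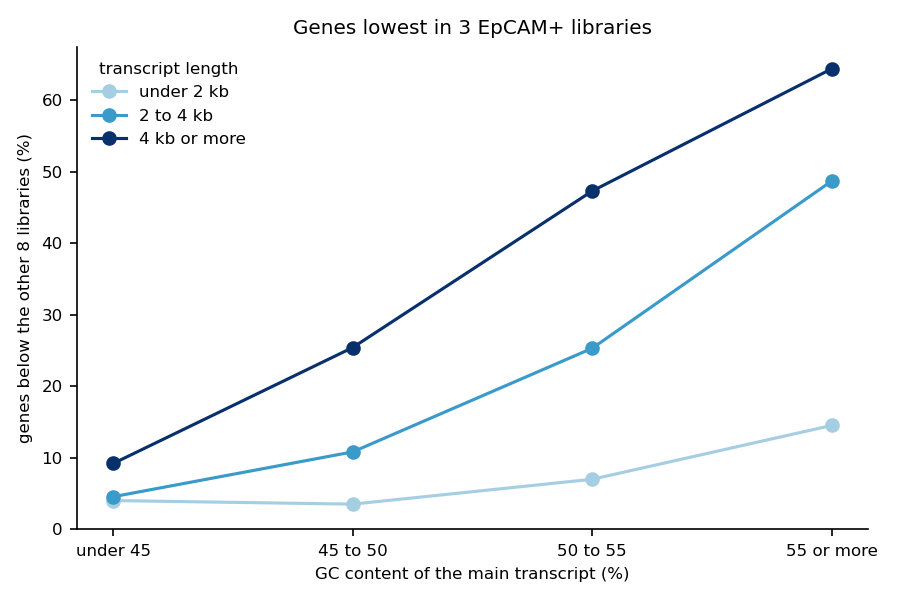
Share of all genes tested in EpCAM+ cells (y axis, percent) whose TPM in V53175, V53176 and N53178 lay below all 8 other EpCAM+ libraries, by GC content of the main transcript (x axis, percent) and by its length (lines). The share rises from 3.99% among short transcripts of low GC to 64.4% among long transcripts of high GC.

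Neighbouring pathways were read from lists of related genes, by the population comparison, in which 25.0% of all genes were lower and 24.3% higher. Counts near those shares say nothing of a list. Of 7 genes of SREBP processing and sterol-regulated degradation, 2 were lower in PDPN+ cells: Erlin2 (-1.88, SE 0.28, edgeR adjusted p = 1.57e-05), a scaffold of endoplasmic reticulum degradation, and the ubiquitin ligase Rnf139 (-2.39, SE 0.65, edgeR adjusted p = 0.00497). Of 9 genes of the non-sterol isoprenoid branch, 1 was lower, Pdss2 (-4.56, SE 0.79), which acts in ubiquinone synthesis. Of 9 genes of sterol storage, efflux and LXR response, 5 were higher and none lower. They included Ch25h (8.76, SE 0.88), which makes 25-hydroxycholesterol, Mylip (6.21, SE 0.76), a ligase that degrades lipoprotein receptors, and the cholesterol efflux pump Abca1 (3.50, SE 0.60).

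Of 22 genes of fatty acid supply, elongation and lipid assembly, 6 were higher in PDPN+ cells and 12 lower, led by Acsl4 (2.36, SE 0.20) and Acsl5 (-1.57, SE 0.16), which activate fatty acids to their CoA esters, and Gpam (3.02, SE 0.37), which starts glycerolipid synthesis. Of 10 genes of fatty acid uptake and lipid droplets, 3 were higher and 3 lower, among them the monoacylglycerol lipase Mgll (7.78, SE 0.83), the fatty acid binding protein Fabp4 (6.77, SE 0.93) and the droplet coat protein Plin2 (-1.39, SE 0.18). Of 12 genes of fatty acid oxidation, 1 was higher, Slc25a20 (0.86, SE 0.24), and 2 were lower, including the acyl-CoA dehydrogenase Acadm (-1.10, SE 0.18). No gene of these lists passed the test for neratinib in either population.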

How the data were processed

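RNA from sorted PDPN+ and EpCAM+ cells was extracted from TRIzol with RNeasy Micro columns and made into libraries with a NEBNext low-input kit, per the labels' protocols. The deposited tables give, for each of 147828 transcripts, the estimated count of reads and the TPM made by the authors with Salmon 1.9.0 on GRCm39, per the submitters' processing notes. Read trimming is not given in the sources used here.

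Estimated counts and TPM were summed per gene with GENCODE M21 identifiers, which matched 137063 transcripts (10765 did not match), and the counts were rounded. The unmatched transcripts held 4.07 to 8.96% of reads in PDPN+ libraries and 1.765 to 2.263% in EpCAM+ libraries. TPM was not rescaled for them, except in the sums with mitochondrial genes left out. M21 was used for names, length and GC content only. Counts were tested with the robust quasi-likelihood test of edgeR 4.0.16 in R 4.3.3, after filterByExpr and TMM scaling, with Benjamini-Hochberg adjustment over all genes tested and a threshold of 0.05. The populations and the interaction were tested over all 19 libraries, and neratinib within each population. DESeq2 1.42.0 and limma 3.58.1 (voom, and log2 of TPM with a pseudocount of 1) were alternatives, with no count filter, effective-length offsets, each library left out and the libraries that stood apart left out. The steps were tested on simulated data.

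The mouse numbers pair 8 mice across populations. As a check, deviations of same-numbered libraries from their group means correlated at -0.107 to 0.0306 across genes. The best correlations with libraries of another number were 0.0142 to 0.086. The check did not bear out the pairing, so the block was kept as an alternative. All 32 genes are named for the populations. For neratinib and the interaction the 4 with the smallest p are named, and up to 3 per related list. The members and lists were chosen with earlier results of these data known. Tables were drawn up with Python 3.11.15.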

Additional observations from a re-analysis of the deposited data

Results flagged for a closer look

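In 8 of 128 groups of values (32 genes in 4 groups), or 6.25%, 1 library lay further from the rest than Dixon's critical value for its group size allows. Chance alone flags about 5% of such groups.

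In PDPN+ neratinib libraries, Idi1 was at 16.5 TPM in N53180 and at 0 in the other 3, and Hsd17b7 was at 7.34 TPM in N53184 against 0.121 to 0.633 TPM. In PDPN+ vehicle libraries, Lss was at 28.5 TPM in V53179 against 5.82 to 8.61 TPM. In EpCAM+ vehicle libraries, Tm7sf2 was at 53.9 TPM in V53179 against 31.1 to 38.9 TPM.

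The other 4 flags came from the EpCAM+ library of N53178, the neratinib library among the 3 EpCAM+ libraries that stood apart. Srebf1 was at 7.88 TPM there against 81.0 to 101 TPM in the other 4 neratinib libraries, Acaca at 1.53 TPM against 4.57 to 5.78 TPM, and Fasn at 18.9 TPM against 43.9 to 51.3 TPM. Idi1, in contrast, was at 12.7 TPM against 6.25 to 7.45 TPM. In the vehicle group the same low values of Srebf1, Acaca and Fasn were shared by V53175 and V53176, so that no single library stood out.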

How the results depend on the processing

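Across the alternatives run, between 17 and 29 members were called between the populations, from 17 with the replicate block to 29 with limma on log2(TPM + 1). Over all genes these 2 fits called 38% and 65.4%, beside 49.3% in the main fit. Leaving out 1 library gave 21 to 23, beside 46.4 to 52% of all genes. With the replicate block the calls of Lss, Insig2 and Scap were lost, and those of Insig1 and Stard4, which were also lost in the same 16 libraries without the block. It ended no other call. Under the block the median over all genes was -0.64. With limma on log2(TPM + 1), 23 members were called in vehicle mice and 27 in neratinib mice, in place of 13 and 17, beside 47.6% and 52% of all genes in place of 33.1% and 38.9%. Over both treatments the members' median was -1.78. The cause was not tested. Leaving out 1 library gave 10 to 16 in vehicle and 16 to 19 in neratinib mice. The shares of all genes were 29.5 to 36.3% and 33.8 to 42.1%. By mean TPM 2 members were higher in PDPN+ cells, and by CPM 5 were.

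Members that did not pass the test between the populations changed sign. Acly was at -0.16 with limma on log2(TPM + 1). Acaca was at -0.48 with voom, -0.49 on log2(TPM + 1), -0.03 with effective-length offsets, -0.25 with the replicate block and -0.65 without the 5 libraries that stood apart. Leaving out 1 library gave -0.58 to 0.33 for Acaca. Fads2 was at -0.05 with voom, -0.28 on log2(TPM + 1) and -0.16 without the 5 libraries. Leaving out 1 library gave -0.05 to 0.26 for Fads2.

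With limma voom 21 members were called, beside 51.7% of all genes, and Idi1, Nsdhl, Hsd17b7 and Dhcr7 were gained. No member was called for neratinib or the interaction in any alternative run. The median for neratinib in PDPN+ cells lay between -0.69 and -0.24 and in EpCAM+ cells between 0.02 and 0.16. The median SE of the neratinib fold change over the members was 0.68 (log2) in PDPN+ cells and 0.18 in EpCAM+ cells, and in PDPN+ cells single members ranged widely, with 0.35 for Fdps and 1.70 for Tm7sf2.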
